A study of Mus musculus with 6 samples.

Results

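The subunits of RNA polymerases I, II and III were followed on the arrays of mouse embryonic stem (ES) cell clones engineered to express human GTF2I. The members were chosen by name, as the probe sets that carried 1 gene symbol of the form Polr1, Polr2 or Polr3 plus letters, with Cd3eap, Znrd1 and Twistnb, the older symbols of 3 polymerase I subunits. They came to 59 of 45037 probe sets and 28 of 18193 genes. The family was picked because earlier results on these arrays had shown Polr2a moving strongly and in opposite directions between clones, so the values of Polr2a within each clone are given as a description, with no test. The polymerase I subunits had 6 genes on 13 probe sets, the polymerase II subunits 8 genes on 9, the polymerase III subunits 9 genes on 25, and the subunits shared between polymerases 5 genes on 12. A further 2 probe sets named Polr2k or Polr2l together with another gene and were not used.

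Polr2a, the largest catalytic subunit of RNA polymerase II, was higher by 1.65 on the log2 scale in induced than in uninduced A1 cells, a 3.13-fold difference. In B3 and C6 the induced cells were lower, at log2 differences of -1.21 and -1.74, which are 2.32-fold and 3.34-fold lower levels. On their brightest probe sets, none of the other 27 subunit genes differed by more than 0.41 on the log2 scale in any clone. No member passed the test of induced against uninduced arrays. Polr3gl, 1 of the alternative forms of a polymerase III subunit, was higher in A1 than in the other clones under both conditions, by 1.32 on average.

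The arrays carried total RNA of clones A1, B3 and C6, separate recombinant colonies made from the same parental ES line. In each, the human GTF2I open reading frame, without untranslated regions and with a FLAG tag, sits at the Rosa26 locus behind a promoter that tetracycline represses. Induced cells had been kept without tetracycline for 24 h, and uninduced cells (0 h) with it. Each clone gave 1 induced and 1 uninduced array, so that a group held 3 arrays. In the test of induced against uninduced arrays, p-values measure the spread between these clones. In the test of level between clones, the induced and the uninduced array of a clone stood in for replicates. A characteristic of the samples names GTF2IRD2, whereas their titles and the series name GTF2I, and the titles were followed. Every value is a log2 summary made by robust multiarray averaging (RMA), and it is set only against the same probe set on other arrays, because brightness also depends on the probes. The array medians lay between 5.06 and 5.11. The 8 ES cell markers averaged 10.90 to 14.20, and 6 markers of feeder cells or fibroblasts averaged 2.58 to 6.69, of which 2 lay below the lower quartile of the arrays. Markers of primitive endoderm averaged 4.13 to 4.95, of trophectoderm 3.27 to 4.91, of mesoderm 5.83 to 6.21 and of the neural lineage 5.38 to 8.38. A further mesoderm marker, T, was listed but not matched by that symbol, so it has no value here. The brightest neural markers, Tubb3 and Neurod1, ran between 7.88 and 8.70 and between 7.11 and 8.53 over the arrays, and their part in the results was not tested. The probe sets were not placed against the human transgene, so the induction was not checked from these values. The paper itself reports RT-PCR of the transgene for these clones. There the transgene was much higher in each clone at the induction time of the arrays than in uninduced cells.

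RNA polymerase I transcribes the ribosomal RNA precursor, RNA polymerase II the messenger RNAs, and RNA polymerase III the transfer RNAs, the small 5S ribosomal RNA and other short RNAs. Each enzyme has its own pair of large catalytic subunits, a stalk and small zinc-binding subunits, and shares further subunits with one or both of the others. The tail of the largest polymerase II subunit is phosphorylated as the enzyme passes through initiation and elongation. GTF2I encodes TFII-I, a DNA-binding protein of the polymerase II system that is known to bind initiator and E-box elements of promoters.

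Promoter windows from RefSeq, on build GRCm38.p6 and running from 250 bases before to 50 after the annotated start, were found for 24 of the 28 genes, 27 windows in all. Those of Polr2a and of the paralogs Polr3gl and Polr3g are shown because the results turn on these genes. Polr2a lies at chr11:69758584-69758883, Polr3gl at chr3:96594132-96594431 and Polr3g at chr13:81710964-81711263, all on the minus strand. Each is printed 5′ to 3′ on the strand of its gene, with capitals marking every match on either strand to 4 short motifs, none of which contains another. They are the TATA box, searched as TATAAA, then the GC box, searched as GGGCGG, the CCAAT box, searched by the letters of its name, and the E-box, searched as CACGTG.
Polr2a: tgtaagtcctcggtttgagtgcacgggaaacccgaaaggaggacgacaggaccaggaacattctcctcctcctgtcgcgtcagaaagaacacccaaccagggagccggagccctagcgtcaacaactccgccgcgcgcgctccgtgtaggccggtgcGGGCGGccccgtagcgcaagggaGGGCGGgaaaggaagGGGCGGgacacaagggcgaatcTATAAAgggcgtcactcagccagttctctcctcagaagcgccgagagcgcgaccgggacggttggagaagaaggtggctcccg
Polr3gl: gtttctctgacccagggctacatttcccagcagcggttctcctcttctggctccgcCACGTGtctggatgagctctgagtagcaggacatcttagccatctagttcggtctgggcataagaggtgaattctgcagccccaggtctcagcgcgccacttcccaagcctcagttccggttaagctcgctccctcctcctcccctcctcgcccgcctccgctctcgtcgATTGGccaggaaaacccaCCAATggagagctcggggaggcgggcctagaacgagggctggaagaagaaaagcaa
Polr3g: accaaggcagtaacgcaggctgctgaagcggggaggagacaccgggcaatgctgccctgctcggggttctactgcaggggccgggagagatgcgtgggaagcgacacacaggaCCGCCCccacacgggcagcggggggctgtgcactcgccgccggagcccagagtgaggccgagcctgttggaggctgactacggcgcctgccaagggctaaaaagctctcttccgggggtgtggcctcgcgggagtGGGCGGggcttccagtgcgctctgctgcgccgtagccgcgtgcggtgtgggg

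The Polr2a window held 1 TATAAA, which began 33 bases before the start, and 3 GGGCGG matches that began 93, 70 and 55 bases before it. It was the only member window with TATAAA on the strand of the gene between 20 and 40 bases before the start, a feature of 1.99% of the 32851 windows of all genes. Anywhere in the window and on either strand, TATAAA was found in 2 of the 27 member windows, those of Polr2a and Polr2c, and in 13.6% of all windows. The Polr3gl window held CACGTG 194 bases before the start and CCAAT on both strands close to it, whereas the Polr3g window held 2 GGGCGG matches and none of the other motifs. Over the members, GGGCGG was in 14 of 27 windows (51.9%, against 35.7% of all), CCAAT in 9 (33.3%, against 37.4%) and CACGTG in 5 (18.5%, against 7.15%), those of Cd3eap, Polr2h, Polr3c, Polr3e and Polr3gl. These matches describe the letters of the windows, and binding was not measured here.

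**Figure D1:**
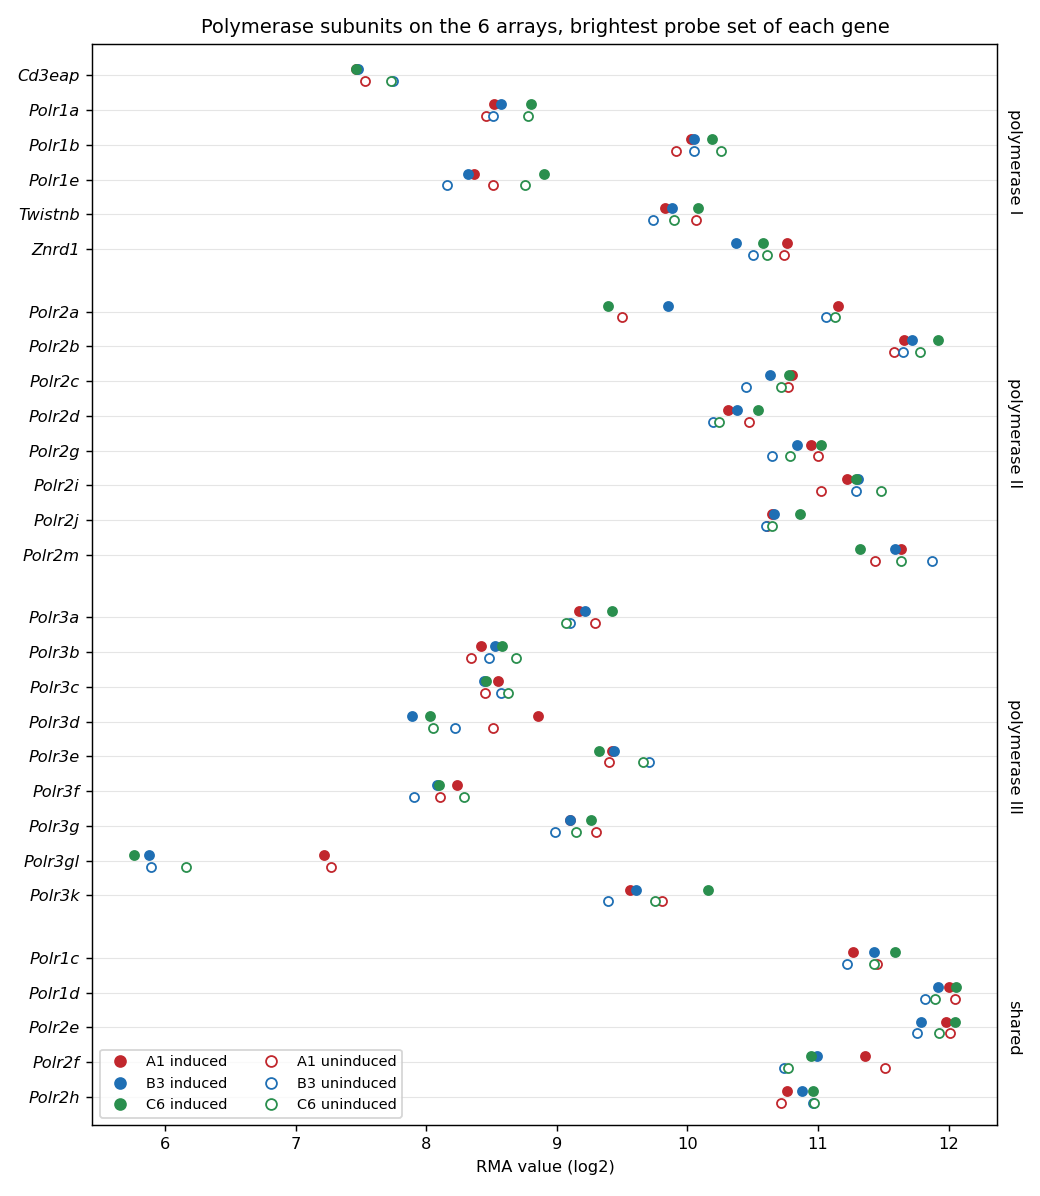
RMA value (log2) of the 28 subunit genes on the 6 arrays, by the brightest probe set of each gene, with induced arrays as filled and uninduced arrays as open circles and clones in colour. The induced A1 value of Polr2a lies beside the uninduced values of B3 and C6, and both A1 values of Polr3gl lie apart from the other 4.

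Among the polymerase II subunits, Polr2a had 11.15 in A1, 9.85 in B3 and 9.39 in C6 in the induced arrays, against 9.50, 11.06 and 11.13 in the uninduced arrays of the same clones. The induced A1 array was the highest, just above the uninduced arrays of B3 and C6, and the uninduced A1 array lay between the induced arrays of B3 and C6. In such bulk RNA, fewer cells with the transcript and less of it per cell cannot be told apart. A second, dimmer probe set of Polr2a had 7.59, 7.24 and 7.03 in induced A1, B3 and C6, against 6.96, 7.80 and 7.67 in the uninduced arrays, which gave the same signs, at 0.62, -0.56 and -0.65. The induced and uninduced groups overlapped on both probe sets. The mean over the clones was -0.44 ± 0.54 on the log2 scale (SE, 95% interval -1.70 to 0.82) for the brighter set and -0.19 ± 0.24 for the dimmer one.

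The size of the clone difference was read from the gap between the difference in A1 and the mean difference in B3 and C6. For Polr2a the gap was 3.13 and 1.23 on its 2 probe sets, which placed them at ranks 5 and 352 by size among the 17168 that averaged 6 or more. The next member, a probe set of Polr3k at -0.80, was at rank 1340. An opposite move of at least 0.5 in each clone was seen in 1 of the 28 genes, Polr2a, and in 1.62% of all those that averaged 6 or more. Since the family was selected for this value, nothing is read from its rank.

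**Figure D2:**
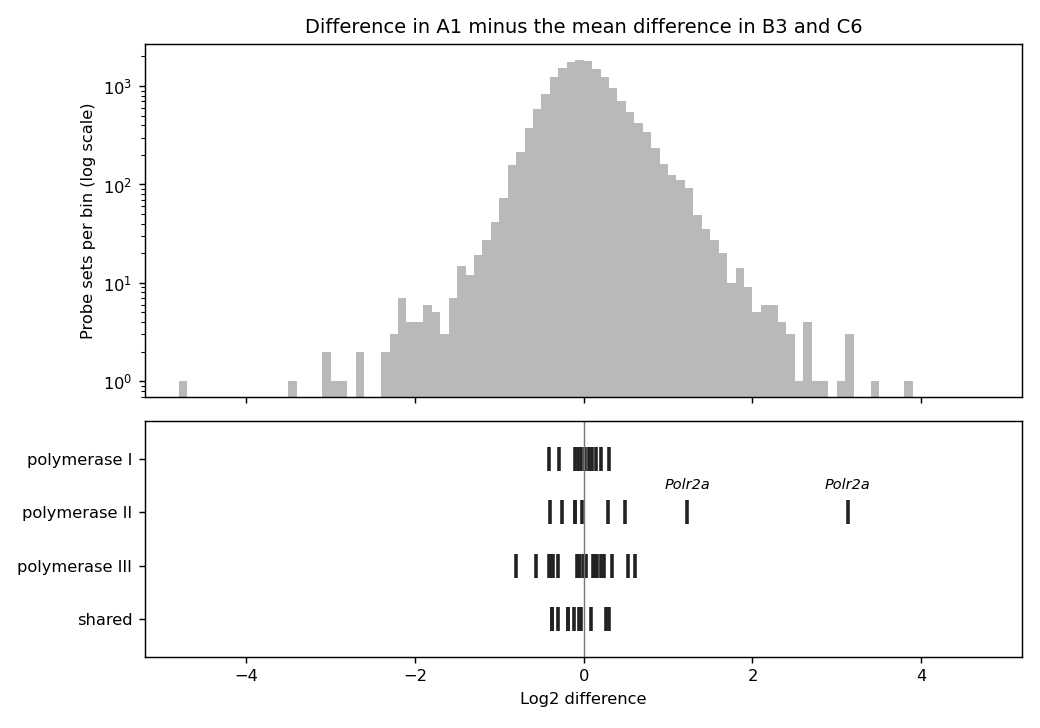
Difference in A1 minus the mean difference in B3 and C6 (log2), for the 17168 probe sets averaging 6 or more as a histogram (count per bin of width 0.1 on a log axis, above) and for the 51 member probe sets among them as ticks by polymerase (below). The ticks of Polr2a stand at 3.13 and 1.23, and the other member ticks lie between -0.80 and 0.61.

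The other polymerase II subunits differed by at most 0.32 in any clone. Polr2b, the second largest catalytic subunit, had 11.66, 11.72 and 11.92 in induced A1, B3 and C6, against 11.58, 11.65 and 11.78 in the uninduced arrays. It was thus higher in every clone by a small amount, with a mean of 0.10 ± 0.11 (SE, 95% interval -0.16 to 0.35). Polr2g, which forms the stalk with Polr2d, had 10.95, 10.84 and 11.02 in the induced arrays of the 3 clones, against 11.00, 10.65 and 10.79 in the uninduced ones. Polr2j, an assembly subunit, had 10.65, 10.66 and 10.86 in the induced arrays, against 10.61, 10.60 and 10.65. Polr2b, Polr2c, Polr2d, Polr2g, Polr2i and Polr2j all had a mean difference above 0, between 0.01 and 0.12 (5 of the 6 with arrays centred on the median), and none passed the test.

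Polr2m, known as Gdown1, a protein bound to a part of the polymerase II pool, was the only other polymerase II gene with the order of Polr2a. It had 11.64, 11.59 and 11.32 in induced A1, B3 and C6, against 11.44, 11.87 and 11.64 in the uninduced arrays. Its differences were 0.19, -0.27 and -0.32, and the mean was -0.13 ± 0.14.

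The polymerase I genes differed by at most 0.27 in any clone on their brightest probe sets. Polr1a, the largest catalytic subunit, had 8.52, 8.57 and 8.80 in induced A1, B3 and C6, against 8.46, 8.51 and 8.78 in the uninduced arrays, with a mean difference of 0.05 ± 0.13. Polr1b, the second largest, had 10.03, 10.05 and 10.19 in the induced arrays, against 9.91, 10.05 and 10.26. In both genes the C6 arrays were the highest under both conditions.

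Cd3eap, which forms a dimer with the product of Polr1e, was the polymerase I gene with the smallest p. It had 7.46, 7.48 and 7.46 in the induced arrays of A1, B3 and C6, against 7.53, 7.75 and 7.73 in the uninduced arrays, so that every induced array lay below every uninduced one. The difference was -0.20 ± 0.10 (SE, 95% interval -0.43 to 0.03), from -0.07 in A1 and -0.27 in both B3 and C6. Its partner Polr1e had 8.37, 8.32 and 8.90 in the induced arrays, against 8.51, 8.16 and 8.76, with the C6 arrays above the others under both conditions. Twistnb, a stalk subunit, had 9.83, 9.88 and 10.08 in the induced arrays, against 10.07, 9.74 and 9.90, lower in A1 and higher in B3 and C6. Znrd1, the small zinc ribbon subunit, differed by -0.05 ± 0.13.

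The polymerase III genes held the widest ranges over the arrays after Polr2a, 1.50 for Polr3gl and 0.97 for Polr3d. The largest catalytic subunit of the enzyme, Polr3a, had 9.17, 9.22 and 9.42 in induced A1, B3 and C6, against 9.29, 9.10 and 9.07 in the uninduced arrays. The second largest, Polr3b, had 8.42, 8.53 and 8.58 in the induced arrays, against 8.34, 8.48 and 8.69. The mean differences were 0.12 ± 0.11 and 0.01 ± 0.12.

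A dimmer probe set of Polr3b behaved otherwise, and it is given here because its values stood out once they had been seen. It had 7.12, 6.97 and 7.10 in induced A1, B3 and C6, against 7.48, 7.34 and 7.35 in the uninduced arrays, with differences of -0.36, -0.36 and -0.26. It was the only 1 of the 59 member probe sets with an unadjusted p below 0.05, a level that 436 of all 45037 probe sets reached. Its adjusted p was 1 (limma). The third probe set of the gene differed by -0.02 ± 0.13, so the lower value was seen on 1 of the 3 probe sets. Every induced array lay apart from every uninduced one on 3 of the 51 member probe sets that averaged 6 or more (this one, Cd3eap and, also picked out afterwards, a dimmer set of Twistnb), against 1.60% of all probe sets at that level.

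Polr3d and Polr3e form a dimer that acts like the polymerase II factor TFIIF. Polr3d had 8.86, 7.89 and 8.03 in induced A1, B3 and C6, against 8.51, 8.22 and 8.05 in the uninduced arrays, and both A1 arrays were above the other 4. The differences were 0.35, -0.33 and -0.03 on this probe set and 0.41, -0.22 and -0.18 on the other. Polr3e had 9.42, 9.44 and 9.32 in the induced arrays, against 9.40, 9.71 and 9.66, a mean difference of -0.20 ± 0.11 (SE, 95% interval -0.46 to 0.07). Its second, dimmer probe set went the other way, by 0.16 ± 0.12, so that the direction depended on the probe set.

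Polr3k, the small zinc ribbon subunit, was measured by 6 probe sets, of which 4 averaged 6 or more. The brightest had 9.56, 9.61 and 10.16 in induced A1, B3 and C6, against 9.81, 9.39 and 9.75 in the uninduced arrays. All 4 were lower in A1 and higher in B3 and C6, the reverse of the order in Polr2a, and the widest had differences of -0.33, 0.40 and 0.53. Polr3k was also the member gene with the largest gap after Polr2a, at -0.57 on its brightest probe set.

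**Figure D3:**
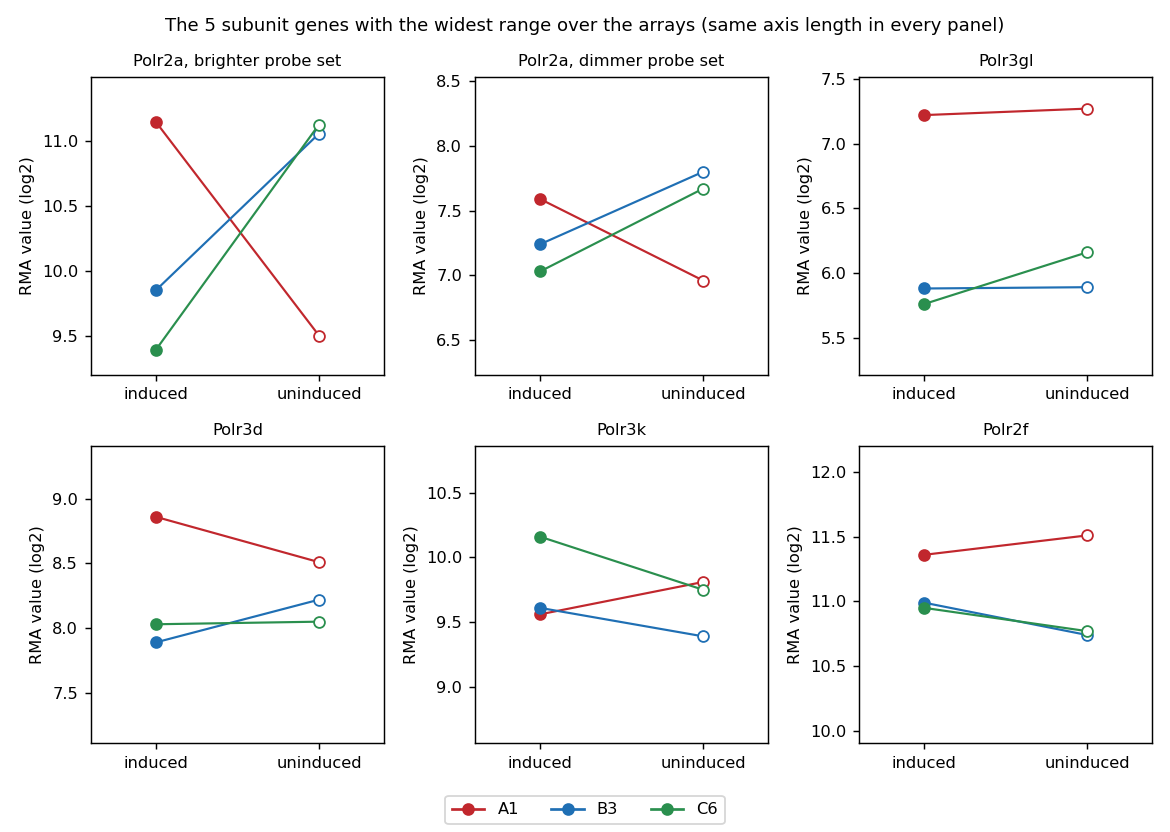
RMA value (log2) in induced (left) and uninduced (right) arrays of clones A1, B3 and C6 for both probe sets of Polr2a and the brightest probe set of Polr3gl, Polr3d, Polr3k and Polr2f, on axes of equal length. The lines of Polr2a cross between A1 and the other clones on both probe sets, and A1 stays above B3 and C6 for Polr3gl, Polr3d and Polr2f.

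The paralogs Polr3g and Polr3gl encode alternative forms of a subunit of the trimer that polymerase III uses at initiation, and Polr3g is known as the form of pluripotent cells. Polr3g had 9.10, 9.10 and 9.26 in induced A1, B3 and C6, against 9.30, 8.99 and 9.15 in the uninduced arrays, a range of 0.31 over the 6 arrays. Polr3gl had 7.22, 5.88 and 5.76 in the induced arrays, against 7.27, 5.89 and 6.16 in the uninduced arrays. For Polr3gl the differences between conditions were -0.05, -0.01 and -0.40, and both A1 arrays stood above the other 4.

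The mean level of each clone over both conditions does not use the differences within clones. It was tested with a limma F test across all probe sets, added after the values had been seen. The error of that test comes in part from how far the differences within clones disagree, which is the contrast that selected the family. Whether a member passed is therefore not independent of that contrast. Polr3gl was the only 1 of the 59 member probe sets that passed (adjusted p = 0.0178), with the A1 level higher than that of B3 and C6 by 1.32, beside 1.13% of all probe sets called. The probe set was dim in B3 and C6, where 3 of the 4 arrays read below 6, so no fold is given for this difference. The adjusted p was 0.166 without the induced B3 array and 0.176 without the uninduced one, while the A1 level was higher by 1.37 and 1.26 and the calls over all probe sets dropped to 13 and 11. Next in size among the brightest probe sets were Polr3d, 0.63 higher in A1 (adjusted p = 0.215), and Polr2f, 0.57 higher in A1 (adjusted p = 0.164). On the dimmer probe sets of these genes the A1 level was higher by 0.66 for Polr3d and by 0.01 for Polr2f. Polr3gl has 1 probe set among the members, so its clone difference had no second measurement on these arrays.

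The shared subunits moved little. Polr2f, part of all 3 enzymes, had 11.36, 10.99 and 10.95 in induced A1, B3 and C6, against 11.51, 10.74 and 10.77 in the uninduced arrays. A1 was the highest under both conditions on this probe set, but not on the dimmer one. Polr1c, an assembly subunit of polymerases I and III, had 11.27, 11.43 and 11.59 in the induced arrays, against 11.45, 11.22 and 11.43. Its partner Polr1d had 12.00, 11.92 and 12.06, against 12.05, 11.82 and 11.90. On their brightest probe sets Polr1c, Polr1d, Polr2e and Polr2f were each lower in A1 and higher in B3 and C6, by at most 0.26, a direction they had under every scaling run. Polr2h, also common to the 3 enzymes, was the reverse by at most 0.08, which did not hold with arrays centred on the 75th percentile. The further probe set of Polr1c and 1 of those of Polr1d kept the direction of the brightest. Another of Polr1d reversed it, at 0.14, -0.23 and -0.01 in A1, B3 and C6. The last of Polr1d was higher in every clone, at 0.05, 0.10 and 0.05. Both further sets of Polr2e reversed the direction, at 0.12, -0.23 and -0.11 and, on a dim set averaging 3.16, at 0.21, -0.13 and -0.29. The further set of Polr2f had -0.01, -0.13 and 0.23. A difference in A1 opposite to both other clones was found in 60.3% of all probe sets averaging 6 or more.

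**Figure D4:**
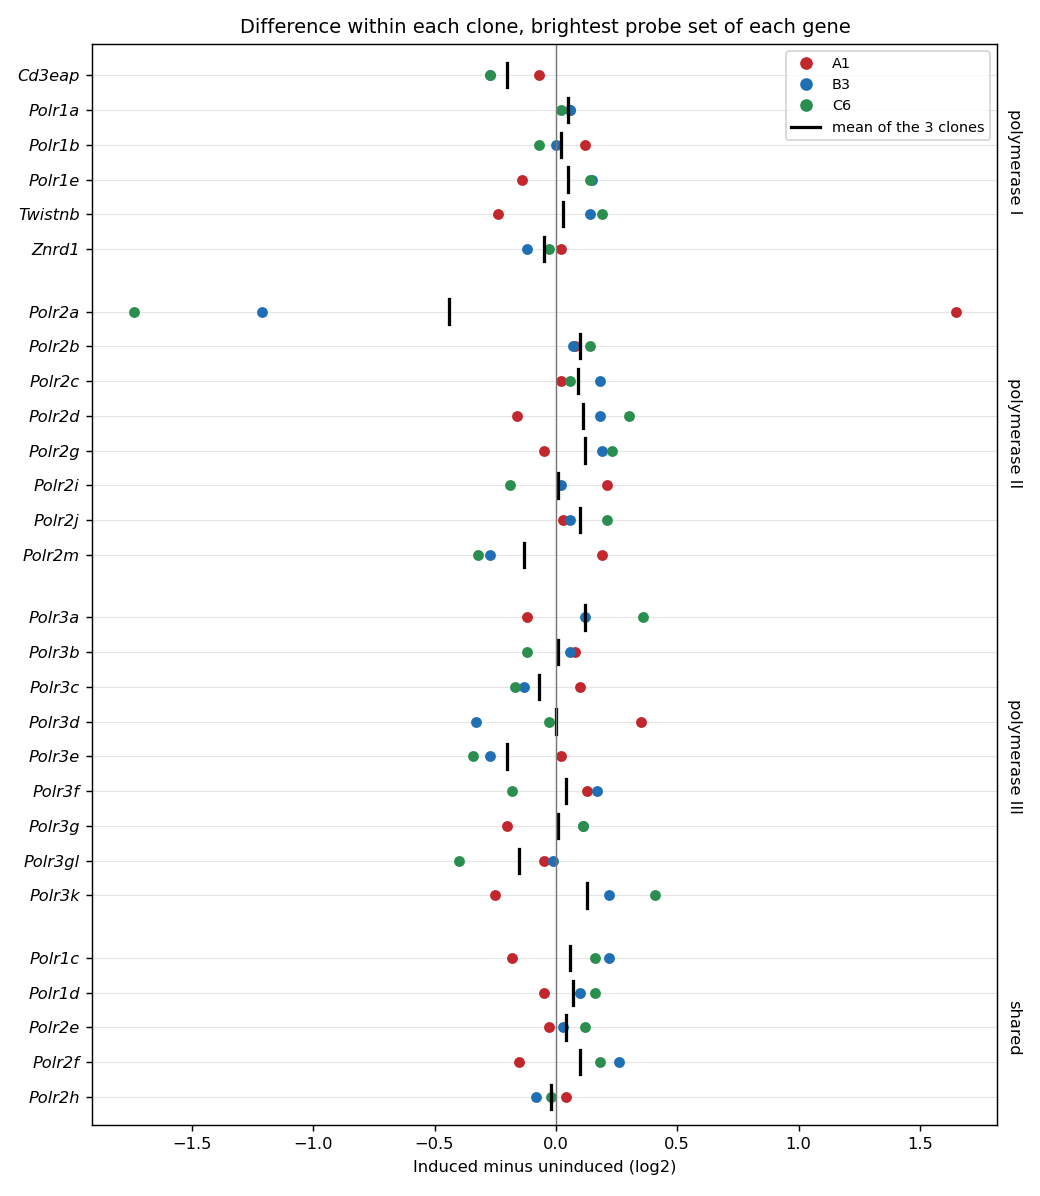
Induced minus uninduced (log2) within clones A1, B3 and C6 (coloured points) and their mean (black bar) for the brightest probe set of each of the 28 genes, grouped by polymerase. Outside Polr2a every point lies between -0.40 and 0.41.

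Over the 28 genes, 19 had a mean difference above 0 and 9 below (16 and 12 with arrays centred on the median), with a median of 0.03 against 0.00 over all probe sets. None was called (limma, smallest adjusted p of 1), and the share called over all 45037 probe sets was 0.00%. An unpaired t-test with equal variances, the form taken here for the t-test of the methods, called none either. The precision was such that the standard errors of the 27 genes other than Polr2a ran between 0.10 and 0.46. The 8 genes not given array by array (Polr2c, Polr2d, Polr2e, Polr2h, Polr2i, Polr3c, Polr3f and Znrd1) had mean differences between -0.07 and 0.11. A difference in A1 opposite to that in both B3 and C6 was found in 18 of the 28 genes, against 60.3% of all probe sets averaging 6 or more, and 6 genes moved in 1 direction in all 3 clones, against 11.9%. The first is close to the background, and it belongs to the contrast by which the family was chosen.

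Over B3 and C6 alone, the mean difference was -1.48 and -0.60 on the probe sets of Polr2a, values that belong to the contrast by which the family was chosen and are given without a test. Among the other members, the largest mean difference over these clones was 0.46, on the Polr3k probe set with the widest differences.

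The probe sets of a gene often differed in sign. For the 15 genes with several, 15 of 31 further probe sets had the sign of the brightest one in the mean and 7 had it in every clone. Those of Polr2a, Polr1c and Polr3d had the same signs in every clone, as did 1 of the 3 further sets of Polr1d and 3 of the 5 of Polr3k. No further set of Polr1a, Polr2e, Polr3b, Polr3d or Polr3e had the mean sign of the brightest. For Polr3d these means were -0.00 and 0.00.

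The factors that work with the polymerases were set beside the subunits as 7 lists, of which 126 of 130 genes were measured. None of the 126 was called between induced and uninduced arrays, 63 were higher and 63 lower, and the median was 0.00. Among the 29 general transcription factors of polymerase II measured, 14 were higher and 15 lower. Ccnh, the cyclin of the TFIIH kinase, had the largest gap, at -0.46, 0.39 and 0.41 in A1, B3 and C6. Of the 28 pausing, elongation and tail-modifying factors, 12 were higher and 16 lower. Supt6, a histone chaperone that travels with polymerase II, differed by 0.69, -0.22 and -1.04 in A1, B3 and C6, and its only further probe set had the opposite sign in the mean over the clones.

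The Mediator list, the bridge between activators and polymerase II, had 18 of 30 genes higher and 12 lower. Med20 had the smallest p there, with differences of -0.28, 0.46 and 0.63 in A1, B3 and C6, and Med15 the widest gap, with 0.42, -0.26 and -0.76. The polymerase III factors had 7 of 17 higher, and Gtf3c4, a subunit of TFIIIC, differed by -0.42, 0.62 and 0.53. The polymerase I factors had 5 of 8 higher, and Ubtf, which binds ribosomal DNA, differed by 0.41, -0.27 and -0.57. Among the 10 assembly factors, 4 were higher, and Rpap1, which takes part in polymerase II assembly, differed by 0.64, -0.51 and -1.22. In mitochondrial transcription, whose polymerase is a separate enzyme, 3 of 4 genes were higher, and Tfb2m differed by -0.25, 0.35 and 0.41. The other genes with the smallest p in their lists (Ttf1, Taf4, Taf13, Cdk12, Cdk13, Med25, Snapc4, Ruvbl2 and Tfam) had mean differences between -0.20 and 0.17.

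With A1 left out and the clone kept as a block, 1.31% of all probe sets were called lower and 0.870% higher. Of the 126 list genes 2 were called lower and 2 higher, close to these shares. They were Rpap1 and Ccnt1 lower, at -0.86 and -0.68, and Gtf3c4 and Med20 higher, at 0.58 and 0.54. In A1, the clone left out, these genes went the other way, at 0.64, 0.59, -0.42 and -0.28. The fit held only B3 and C6, and leaving out A1 follows the contrast by which the family was chosen. Nothing is therefore read from these calls. Ccnt1, the cyclin of the pause-release kinase, was outside the naming rule and is given because it was called. All 4 had further probe sets of the opposite sign in the mean over the 3 clones, 2 of 3 for Rpap1 and the only further set of the others. That mean takes in A1, and the further sets were not compared over B3 and C6 alone, the contrast of the calls. In level between clones 2 of the 126 list genes passed the F test, beside the 1.13% of all probe sets given above. They were Gtf2f2, a TFIIF subunit, 1.30 higher in A1 (adjusted p = 0.0120), and Med4, 0.98 higher in A1 (adjusted p = 0.0256), both also named after their values were seen.

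**Figure D5:**
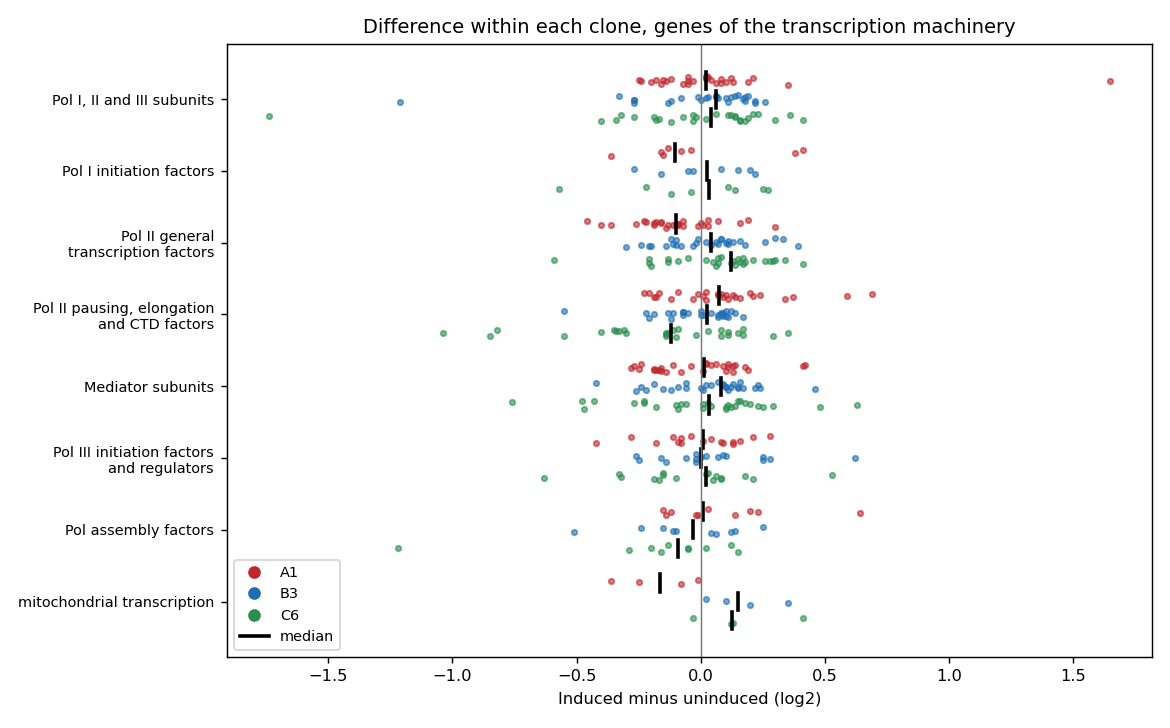
Induced minus uninduced (log2) within clones A1, B3 and C6 for the 28 subunit genes and for the genes of 7 lists of transcription factors, each point being 1 gene by its brightest probe set and each bar the median of a clone. In each clone the point of Polr2a is the farthest from 0, at 1.65, -1.21 and -1.74, the values for which the family was chosen.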

How the data were processed

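Total RNA of 6 ES cell cultures was hybridized to Affymetrix whole-genome mouse arrays. The deposited values were log2 summaries per probe set, which the authors made with affy and RMA (versions not given in the sources used here). RMA subtracts background, sets all arrays to 1 distribution and combines the probes of a set, which removes shifts common to an array. The deposited log2 values were used unchanged, without 64 control probe sets of 45101.

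Probe sets were named from the platform annotation, and 45037 were tested with limma 3.58.1 in R 4.3.3 (lmFit, eBayes, two-sided, Benjamini-Hochberg over all, threshold 0.05), in place of the t-test of the methods because a group held 3 arrays. The scripts were tested on simulated data. The brightest probe set stood for a gene. The same clones were in both groups, and the deviations of a clone's arrays from their group means correlated at r = 0.19 (A1), 0.532 (B3) and 0.312 (C6).

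The members and lists were chosen with earlier results of these data known. Given array by array were the largest subunits, Polr2a, Polr3g and Polr3gl, and per class the 2 genes with the smallest p and the 2 with the widest gap; per list, the 2 with the smallest p and the 1 with the widest gap were eligible. Alternatives covered the block, test, variance model, array weights, normalization, filters, threshold, and arrays or clones left out. The number of arrays limits the precision.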

Additional observations from a re-analysis of the deposited data

Results flagged for a closer look

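Polr2a was picked out on both probe sets because A1 went one way and B3 and C6 the other, by at least 0.5 on the log2 scale in each clone. The gap between A1 and the mean of B3 and C6 was 3.13 on the brighter and 1.23 on the dimmer probe set. This difference between clones was not tested, since the family was chosen for it, and each clone has 1 array per condition. No other member met this description.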

How the results depend on the processing

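The count of induced against uninduced probe sets past the threshold was 0, over all probe sets and over the members, under every alternative run except one. That one left out A1 and kept the clone as a replicate block, with 981 calls in all. The 2 member probe sets in that count were those of Polr2a, whose values there selected the family, so they are no test of it. The block with all clones gave 0 calls, with 847 probe sets at an unadjusted p under 0.05, and changed no call. The unpaired t-test taken for that of the methods gave 0 calls, with 867 probe sets at an unadjusted p under 0.05. Among the 20 genes given array by array, 71 of 460 pairs of gene and alternative changed sign. Polr1b, Polr3b, Polr3d and Polr3g changed sign under another scaling. The split of higher and lower member genes was 16 and 12 with arrays centred on the median, 20 and 8 with another quantile normalization or the 75th percentile, and 19 and 9 as deposited. A sign change counted as a reversal only where a value was past the threshold, which was the case for no sign change.

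In level between clones, 509 probe sets were called, 108 when only those averaging 6 or more were tested, and 1026 with clone alone in the fit. Leaving out 1 array gave 11 to 3838 calls, and 0 to 8 among the members. The lowest counts were without a B3 array (11 and 13), where Polr3gl was no longer called, at 1.26 and 1.37. The highest were without an A1 array (3838 and 3364), where the fit takes in the contrast that selected the family, so that the 8 and 7 member probe sets then called, Polr3gl among them, are no test. Without a C6 array there were 117 and 108 calls, Polr3gl among them. The cause of these shifts was not tested. Depth does not apply to arrays, and dim probe sets limit what can be read: 8 of the 59 member probe sets had a mean under 6.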
